A study of Homo sapiens with 10 samples.

Results

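The strong m6A peaks with solid input are windows of mRNA in which an antibody against N6-methyladenosine (m6A) recovered at least 10 times the input signal, at places where the input itself was well covered. A peak was a member when its immunoprecipitate value divided by its input value was 10 or more, its input value was 10 or more, its window began from base 200 and before base 4000 of the transcript and was narrower than 250 bases, and its gene had 2 to 7 peaks in each m6A list. The peaks were chosen by these ratio, input, position, width and count values, so the height of the ratio is a description here and not a result. In all, 4151 of the 49349 listed peaks were members: 2132 of 24494 in m6A-seq 1 and 2019 of 24855 in m6A-seq 2. Among peaks that met the other criteria, 17.5% in m6A-seq 1 and 16.9% in m6A-seq 2 reached the ratio of 10.

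The cells were HCT116, an established human colorectal cancer line, and the series asked which mRNAs are translated under the control of YTHDF1. Ribosome profiling and mRNA-seq each had 2 libraries of YTHDF1 knockdown (hairpin shY1, titles shY1-1 and shY1-2) and 1 control library (hairpin shGFP in the file header). A YTHDF1 RIP and its input, a whole cell lysate, had 1 library each from control cells, and m6A-seq had 2 replicates from control cells. Per the labels all 10 samples received cycloheximide, which arrests ribosomes, at 100 ug/ml for 3 min. Nothing in the labels tells separate cultures from repeats of 1 culture, or different hairpins shY1-1 and shY1-2 from repeats of 1 hairpin, so the spread between them may be technical. Depth is unknown, since no file used here gives read counts. Of 8 epithelial marker genes, 5 (EPCAM, KRT8, KRT18, KRT19 and CDH1) were in the expression table, and CLDN4, CLDN7 and VIL1 were not. The epithelial markers summed to mRNA values of 3402 to 5497 in knockdown and 3917 in control libraries, against 5.66 to 5.71 in knockdown and 6.36 in control for the 2 listed fibroblast markers, COL1A1 and FN1. CD68, the 1 listed blood marker, had mRNA values of 4.98 and 19.9 in knockdown and 19.9 in control, and footprint values of 9485 to 10163 in knockdown and 15090 in control.

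m6A is the most common internal modification of mRNA. A nuclear enzyme complex built around METTL3 and METTL14 writes it, mostly near stop codons and in long internal exons, at adenosines in a short motif in which a purine pair precedes the adenosine and a cytosine follows it. YTHDF1 is a cytoplasmic protein whose YTH domain binds m6A, and it has been reported to promote translation of some of the mRNAs it binds. In m6A-seq, RNA fragments are pulled down with an antibody to m6A, and a peak is a stretch where the pulled-down fragments exceed those of the input.

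The motif that the lists give for each peak carries the chemistry of the site, and it is therefore shown before the values. Every peak had 1 of 12 motifs of 5 letters, read 5′ to 3′ along the transcript with T for U, and the capital A below marks the adenosine in the middle. The GGAC group was listed for 32.4% of strong peaks in m6A-seq 1 and 29.9% in m6A-seq 2, against 29.9% and 29.2% of the peaks of the same window with a ratio under 10. The motifs follow with their number of strong peaks in m6A-seq 1 and m6A-seq 2, the GGAC group leading.
253 and 210 strong peaks: ggAca
213 and 200 strong peaks: ggAcc
224 and 194 strong peaks: ggAct
179 and 166 strong peaks: gaAca
131 and 112 strong peaks: gaAcc
177 and 154 strong peaks: gaAct
174 and 162 strong peaks: agAca
176 and 176 strong peaks: agAcc
168 and 171 strong peaks: agAct
171 and 191 strong peaks: aaAca
134 and 132 strong peaks: aaAcc
132 and 151 strong peaks: aaAct
Among peaks that met the other criteria, those with ggAct reached the ratio of 10 in 20.3% of cases in m6A-seq 1 and 18.5% in m6A-seq 2. Those with agAca did so in 15.8% and 14.4%. The other 10 motifs lay between 14.6% and 19.4%, the highest being aaAca in m6A-seq 2, above ggAct in that list. No motif set the strong peaks apart by more than a few percentage points. The file header does not say which letter of the motif its position refers to. That position lay a median of 17 bases from the peak summit in m6A-seq 1 and 18 in m6A-seq 2, against 19 and 20 bases for the peaks with a ratio under 10. It fell outside the window for 15.7% and 16.5% of strong peaks, against 20.9% and 22.0% of the peaks with a ratio under 10.

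Strong peaks had a median ratio of 14.2 in m6A-seq 1 and 14.1 in m6A-seq 2, a median immunoprecipitate value of 770 and 860 and a median input value of 48.9 and 53.9. Peaks of the same window with a lower ratio had median immunoprecipitate values of 572 and 587 and input values of 117 and 120. The strong peaks were thus higher in the pulled-down sample and lower in the input, both of which the selection favours. No listed peak had an immunoprecipitate value under 150, so every peak with an input value between 10 and 15 reached the ratio of 10 by that alone. In the input range of 10 to 20, 87.7% and 83.1% of peaks were members, and at inputs of 100 or more 8.04% and 8.79% were. The peaks nearest the threshold in m6A-seq 1 were in RNPEPL1, ERAL1 and KATNA1 just inside, up to a ratio of 10.0025, and in SEC23A, CCNL2 and PROSC just outside, down to 9.993. In m6A-seq 2 they were in DHX32, TSN and PLEKHA2 inside, up to 10.0059, and in DLD, RNF141 and ATG9A outside, down to 9.992.

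Both m6A lists were read for the same place on the transcript, to see how far the replicates gave the same strong peaks. Members of the lists that overlapped by at least 1 base in the same gene were joined into 2987 loci. Of these, 1157 (38.7%) were strong in both lists, 1207 (40.4%) were strong in 1 list and overlapped a peak outside the rule in the other, and 623 (20.9%) had no peak in the other list. A peak of any strength overlapped 84.7% of the strong peaks of m6A-seq 1 (Wilson 95% interval 83.1% to 86.1%) and 85.3% of those of m6A-seq 2 (83.7% to 86.8%). For peaks with a ratio under 10 the shares were 77.2% (76.4% to 78.0%) and 75.8% (74.995% to 76.7%). For peaks with an input under 10 they were 61.0% and 68.0%. These intervals cover the counting of peaks only, and peaks of 1 gene share its transcript. The lowest ratio in either list was 3.00, and peaks with a ratio under 10 lie nearer to that limit than strong peaks. The higher match of strong peaks than of these is therefore favoured by the selection.

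The replicates are not independent in their ratios. In 5972 windows that were identical in both lists the input value was identical in every one, while the immunoprecipitate value was identical in 3. The lists therefore share 1 input, and a low input value in a window raises the ratio in both. Among these windows 706 held a member, of which 465 were strong in both lists, 101 in m6A-seq 1 only and 140 in m6A-seq 2 only. What the replicates add on their own is the immunoprecipitate value.

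At the 1157 loci strong in both lists the ratios lay close together. The median was 15.8 in m6A-seq 1 and 15.4 in m6A-seq 2, 1104 loci (95.4%) were within 2-fold, and the log2 difference had an SD of 0.454 over loci. The summits were a median of 4 bases apart, with 13 bases at the upper quartile, and the motif position was identical at 970 loci (83.8%). The correlation between the lists across these loci was 0.87 for the log2 immunoprecipitate value and 0.75 for the log2 ratio, as a description over loci that share the input and the lower limit of 10.

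**Figure D1:**
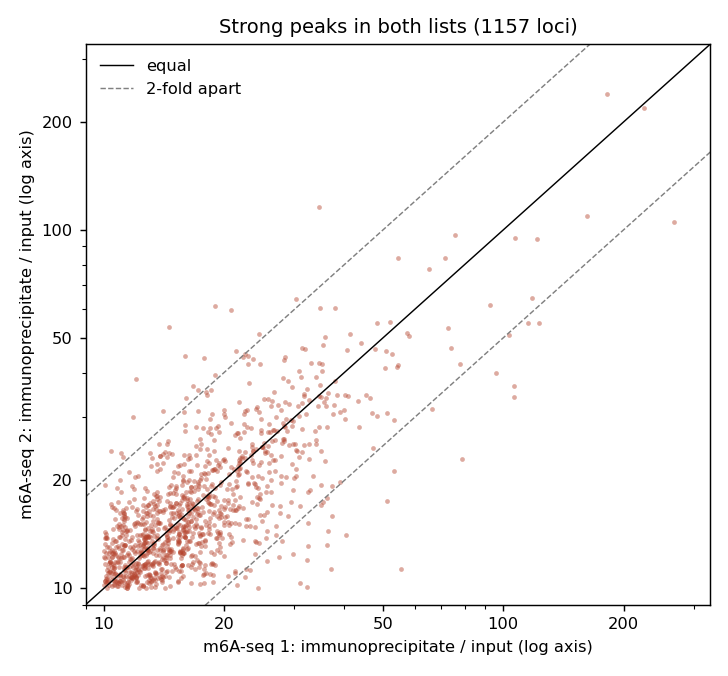
Immunoprecipitate over input in m6A-seq 2 (vertical, log axis) against m6A-seq 1 (horizontal, log axis) at the 1157 loci strong in both lists; each point is a locus, the solid line marks equal ratios and the dashed lines a 2-fold difference. Of the points, 95.4% lie within the dashed lines, and the empty area below 10 on both axes is set by the rule.

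Where a locus was strong in 1 list only, the overlapping peak of the other list most often missed the ratio. Of 972 loci strong in m6A-seq 1 only, the overlapping peak of m6A-seq 2 missed the ratio in 477, the width in 138, the input in 26 and the start in 4, and 327 had none. Of 858 loci strong in m6A-seq 2 only, the overlapping peak of m6A-seq 1 missed the ratio in 446, the width in 87, the input in 26 and the start in 3, and 296 had none. The median ratio of the overlapping peak was 8.59 and 8.61 in these 2 sets, not far under the limit. Loci with no peak in the other list had low input values, with medians of 23.3 in m6A-seq 1 and 30.4 in m6A-seq 2.

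The share of strong peaks with an overlapping peak in the other list was higher at higher input values. It was 60.3% in m6A-seq 1 and 69.4% in m6A-seq 2 at inputs of 10 to 20, and 99.4% and 97.4% at inputs of 100 or more. It was also higher at higher immunoprecipitate values, at 51.6% and 66.8% under 300 and 100.0% and 98.9% at 3000 or more. Ratio made less difference: 82.7% and 85.7% at ratios of 10 to 15, and 96.0% and 92.5% at ratios of 40 or more, the last over few peaks. Between these it was 85.7% and 83.8% at 15 to 20, and 87.2% and 84.6% at 20 to 40. In m6A-seq 2 it thus did not rise under a ratio of 40. The share of strong peaks that met a strong peak stayed between 47.4% and 65.6% in every input range.

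**Figure D2:**
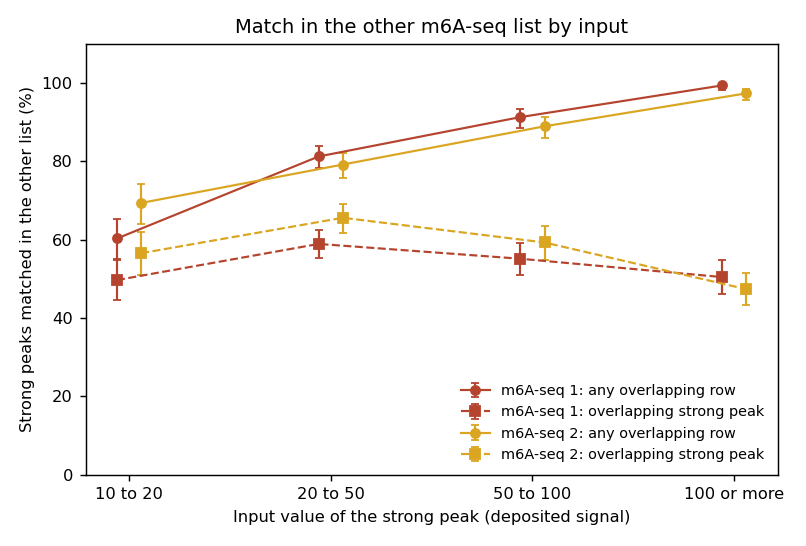
Percentage of strong peaks with an overlapping peak (circles, solid lines) or an overlapping strong peak (squares, dashed lines) in the other list, by input value, for m6A-seq 1 and m6A-seq 2; thin bars are Wilson 95% intervals. Any match rises to 99.4% and 97.4% in the highest input range, while matches with a strong peak lie between 47.4% and 65.6%.

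The strong peaks lay further along the transcript than weaker peaks of the same window. Their median summit was at base 1703 in both lists (1702.5 in m6A-seq 1), against 1476 and 1480 for peaks with a ratio under 10. A strong peak was the last listed peak of its gene in 36.0% and 36.3% of cases, against 26.9% and 27.6% of the weaker peaks. It was the earliest in 21.5% and 21.9%, against 29.0% and 28.9% of the weaker peaks. It held the highest ratio of its gene in 70.4% and 71.4%, which the selection favours. The transcript is not named in the lists, so neither the coding region nor the distance to its end is known, and a base number is a distance from the transcript's start.

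The share of peaks that were strong was 13.8% in m6A-seq 1 and 14.3% in m6A-seq 2 for windows starting before base 1000. It was 21.0% and 19.8% from base 2000 and before base 3000, and 20.6% and 21.2% from base 3000. The input value moved with position: its median over these peaks was 118 and 123 before base 1000, and 86.9 and 92.9 from base 3000. Within the input range of 20 to 50 the share still differed, at 29.2% and 31.0% before base 1000 and 39.4% and 43.2% from base 3000. At inputs of 50 to 100 it was 13.3% and 14.3% before base 1000 and 18.0% and 19.3% from base 3000. At inputs of 10 to 20 it was 85.1% and 81.8% before base 1000 and 85.9% and 81.5% from base 3000. At inputs of 100 or more it was 7.57% and 8.45% before base 1000. There it was 8.63% and 9.63% from base 2000 and before base 3000, and 5.97% and 7.45% from base 3000. What part the input value has in the change with position was otherwise not tested.

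**Figure D3:**
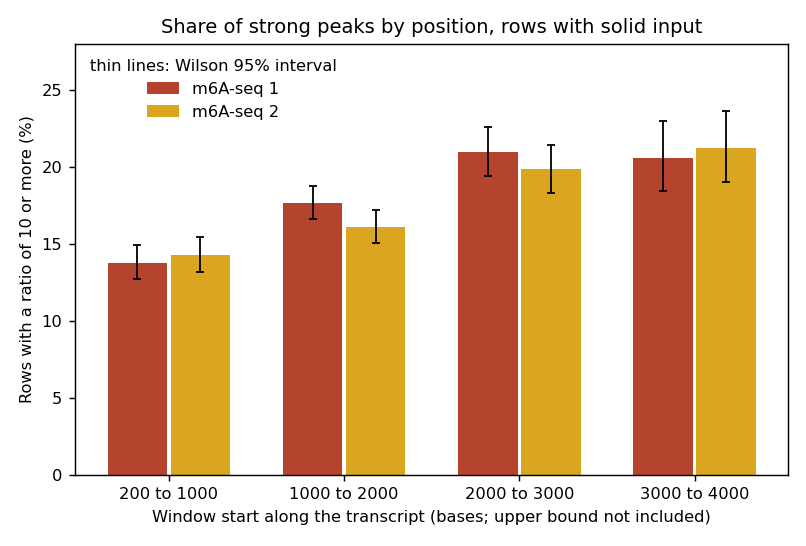
Percentage of peaks with a ratio of 10 or more among those that met the other criteria (vertical), by the start of the window along the transcript in bases (horizontal), for m6A-seq 1 and m6A-seq 2; thin lines are Wilson 95% intervals. The share is 13.8% and 14.3% in windows starting before base 1000 and 20.6% and 21.2% from base 3000.

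The 12 loci with the highest mean ratio among those strong in both lists were in 12 genes. MTRNR2L8, a gene similar to the mitochondrial ribosomal RNA region that encodes humanin, had ratios of 225.1 and 218.4 at bases 1100 to 1275, with the motif agAct. MTRNR2L1 of the same family had 267.0 and 105.1 at bases 1225 to 1425, with immunoprecipitate values of 93358 and 36735 over an input of 350. NOMO1, an endoplasmic reticulum membrane protein, had 182 and 240 at bases 3650 to 3875, with the motif agAca. All 3 genes have near-identical copies elsewhere, in the nuclear or mitochondrial genome, and the counting could split or pool reads between copies, so their values are uncertain.

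Below them stood RCOR1, the CoREST scaffold that joins histone-modifying enzymes to repressed genes (GRCh38 chromosome 14, 102592649 to 102730561). Its locus at bases 2300 to 2450, with the motif ggAcc, had immunoprecipitate values of 2477 and 1675 over an input of 15.3, which gave ratios of 162 and 110. SDSL, a serine dehydratase-like enzyme (chromosome 12, 113422380 to 113438276), had ratios of 107.1 and 94.995 at bases 1250 to 1400, with ggAct. SLC43A2, a transporter of large neutral amino acids (chromosome 17, 1569254 to 1630088), had 118 and 64.5 at bases 1950 to 2075, with gaAct. HOXA9, a homeobox transcription factor (chromosome 7, 27162438 to 27165537), had 103 and 51.0 at bases 825 to 1000, with gaAct. The replicates put all of these far above the limit, but the ratio differed between them by up to about 2-fold.

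The remaining loci of this set were in genes of unrelated roles. COMMD1, a regulator of copper handling and of NF-kappaB, had ratios of 123 and 54.9. FBXL15, the substrate-binding subunit of a ubiquitin ligase, had 75.9 and 96.8 over the highest input among the non-repeated genes here, 112. SPPL2B, an intramembrane protease, had 115 and 55.1. TUBGCP5, a subunit of the gamma-tubulin ring complex, had 71.3 and 83.5. ERMP1, a metallopeptidase of the endoplasmic reticulum, had 92.8 and 61.7.

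The best covered loci were less extreme in ratio and mostly closer between replicates than those picked by ratio. They were picked by input, by which the ratio is divided, so the choice of both sets favours this difference in ratio. What part the choice has in the closeness of the replicates was not tested. GJC1, the gap junction protein connexin 45, had the highest mean input of any locus strong in both lists, 599, with ratios of 14.9 and 12.6 at the motif ggAca. PPM1D, a phosphatase that switches off p53 signalling, had 17.2 and 19.6 over an input of 508 at bases 1800 to 2000, also at ggAca. GRWD1, a ribosome assembly factor, had 17.3 and 16.1 over 457 at agAct. LRRC47, a leucine-rich repeat protein, had 10.9 and 12.1 over 473 at ggAca. BAG4, a co-chaperone of HSP70, had 14.9 and 14.4 over inputs of 423 and 489.

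Among loci with no peak in the other list, the highest ratios were found over inputs between 11.8 and 19.4. ADCY9, an adenylyl cyclase, had a ratio of 67.0 in m6A-seq 2, and TAF2, a subunit of the general transcription factor TFIID, had 64.9 in m6A-seq 2. GAB2, a signalling adaptor, had 55.5 in m6A-seq 1. HLTF, a DNA helicase-like ubiquitin ligase, had 54.3 in m6A-seq 1. Each of these stands on 1 replicate.

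The strong peaks belonged to 2167 host genes of the 4705 genes with 2 to 7 peaks in each list, or of 9565 genes with any peak. Names of 3 hosts had been turned into dates by a spreadsheet, and the other 2164 are described. Of the hosts, 1513 had 1 locus, 510 had 2, 124 had 3, 18 had 4 and 2 had 5. A locus strong in both lists was found in 1037 hosts. Neighbouring loci of 1 host lay a median of 375 bases apart, over 820 pairs.

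KCNK6, a potassium channel, and NBPF1, of the neuroblastoma breakpoint family with near-identical copies, had 5 loci each. None of these 10 was strong in both lists. KCNK6 had 7 peaks in m6A-seq 1 and 3 in m6A-seq 2, and its strong peaks, with ratios of 13.7 to 21.5, were all in m6A-seq 1. MICAL2, an actin-oxidising enzyme, had 4 loci, with ratios of 106 and 34.1 at bases 3425 to 3600 and of 87.2 and 57.6 at bases 250 to 375, where the input of m6A-seq 2 was 6.7. LPAR1, a receptor for lysophosphatidic acid, had 65.3 and 78.0 at bases 1425 to 1650 and 3 weaker loci. SLC41A1, a magnesium transporter, had 2 of 4 loci strong in both lists, with 35.1 and 40.4 at the higher. ACSL4, which activates long-chain fatty acids, had 34.5 and 42.5 at the higher of its 2 such loci, with ggAct. The multiple loci of a host were thus of mixed support.

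Hosts were counted by gene family. Zinc finger genes of the ZBTB, ZFP, KLF, SP, ZSCAN and ZKSCAN series made up 33 of 2164 hosts (1.52%), against 11 of 2531 other genes with 2 to 7 peaks in each list (0.435%) and 0.89% of all genes with a peak. These include KLF11, KLF3, SP6 and ZBTB21. Genes of the larger ZNF series made up 2.50% of hosts and 2.33% of the others. Homeobox, SOX and forkhead genes made up 0.555% of hosts and 0.514% of the others. Solute carriers made up 1.57% of hosts and 2.13% of the others, and ribosomal proteins 0.0924% of hosts (RPL17 and RPS3A) and 0.237% of the others. No test was made of these shares, since the families were listed by symbol with the hosts known.

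Of the Wnt pathway genes with 2 to 7 peaks in each list, 13 of 30 (43.3%) were hosts, close to the 2167 of 4705 for all such genes. Wnt signalling stabilises beta-catenin, which then enters the nucleus and activates genes with TCF factors. Among the receptors, FZD7 (GRCh38 chromosome 2, 202033855 to 202038441) had ratios of 18.3 and 14.3 at bases 450 to 575 with gaAca, and another locus, strong in m6A-seq 1 only. FZD1 had a locus at bases 750 to 925 with 8.01 in m6A-seq 1 and 11.7 in m6A-seq 2, both with ggAcc. Its other locus, at bases 1550 to 1675, had 15.4 in m6A-seq 2 and no overlapping peak in m6A-seq 1. FZD5 had 10.5 in m6A-seq 1 only. LRP5, the co-receptor (chromosome 11, 68298412 to 68449275), had 10.999 and 10.754 over an input of 37.8, with ggAcc. RNF43, a ubiquitin ligase that removes Frizzled from the membrane and is itself a Wnt target, had 9.73 and 10.4.

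Downstream of the receptors, APC, the scaffold of the complex that degrades beta-catenin, had 2 loci with ratios of 27.3 and 12.9. Both were in m6A-seq 2, with no overlapping peak in m6A-seq 1. BTRC had 10.5 and 6.8 and FBXW11 had 8.4 and 10.2, and both encode F-box proteins that mark beta-catenin for degradation. TNKS2, a tankyrase that destabilises axin, had 12.7 and 8.5. Among the nuclear partners, BCL9 (chromosome 1, 147541501 to 147626216) had 12.6 and 13.7 with aaAct, and PYGO2 had 16.9 and 16.7. TCF7L2, the DNA-binding factor of the pathway (chromosome 10, 112950247 to 113167678), had immunoprecipitate values of 391 and 222 over an input of 25.5, and so ratios of 15.3 and 8.7. TLE1, a corepressor of TCF factors, had 51.7 and 35.0, but its inputs were 3.0 and 10.5. The locus was strong in both lists in BCL9, FZD7, LRP5 and PYGO2.

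Of the Wnt target genes, 8 of 16 were hosts. ID2, an inhibitor of helix-loop-helix transcription factors (chromosome 2, 8682056 to 8684461), had the highest ratios, 31.1 and 38.8, with immunoprecipitate values of 10828 and 13484 over an input of 348 and the motif aaAcc. VEGFA, an angiogenic growth factor, had 14.1 and 12.8 at bases 275 to 500 with ggAca. BMP4, a growth factor, had 12.5 and 12.4 over an input of 78.0. JUN, an AP-1 subunit, had 12.4 and 25.3, the m6A-seq 2 window being too wide for the rule. SOX9, a transcription factor of intestinal crypts, had 11.5 and 13.4, the m6A-seq 1 window being too wide. NKD2, an inhibitor of Dishevelled, had 10.1 and 7.9. CCND1, cyclin D1, had a single strong window at a ratio of 10.05 over an input of 16.1, in m6A-seq 1 only.

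Of the m6A machinery, 5 of 12 genes were hosts. CBLL1 (Hakai), a ubiquitin ligase associated with the writer complex, had 20.01 and 21.70 over inputs of 276 and 323 with gaAct, the m6A-seq 2 window being too wide. IGF2BP2 and IGF2BP3, which bind m6A-bearing mRNAs, had 18.2 and 17.9, and 15.6 and 11.5. RBMX, an RNA-binding protein, had 18.4 and 15.3 with aaAcc. KIAA1429 (VIRMA), a scaffold of the writer complex, had 14.9 in m6A-seq 1 at bases 3325 to 3425, with no overlapping peak in m6A-seq 2. Its other locus, at bases 2225 to 2450, had 7.43 in m6A-seq 1 and 10.3 in m6A-seq 2. Of p53 targets 5 of 13 were hosts, with PPM1D (above) and PLK2, a stress-induced kinase at 10.6 and 10.3, strong in both lists, and AEN, TNFRSF10B and TP53INP1 in 1 list each. Of 26 signalling regulators 14 were hosts, among them SPRED2, a brake on Ras signalling, with 23.5 and 24.9, and EGR1, an immediate early transcription factor, with 12.8 and 13.9.

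The RIP asks which RNAs are recovered with YTHDF1. The list holds only genes whose FPKM in the YTHDF1 immunoprecipitate was at least 1.5 times that of the input, so absence from it can mean a lower ratio or an input under 1 FPKM. Of the hosts, 1075 of 2164 (49.7%) were listed. Among other genes with 2 to 7 peaks in each list 47.0% were listed, and among all genes with a peak 38.3%. Counting only listed genes whose RIP input was at or above the list's median, the share was 23.9% of all hosts, against 28.6% of all the others. This count leaves the total of genes unchanged and drops genes of low RIP input. Listed hosts had the lower RIP input, so it favours the others. The listed hosts had a median ratio of 2.33, against 2.29 for the other genes. Their median FPKM was 11.9 in the immunoprecipitate and 4.70 in the input, against 16.1 in the immunoprecipitate and 6.52 in the input for the others. The RIP has 1 library of each kind and therefore no replicate check and no test.

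Listing was more frequent in genes with more m6A peaks, among hosts and other genes alike. With 2 peaks in m6A-seq 1, 34.7% of hosts and 35.3% of the others were listed. With 4 peaks 50.7% of hosts and 56.9% of the others were listed, and with 7 peaks 75.9% of hosts and 78.5% of the others. At 5 peaks, hosts stood at 60.3% (Wilson 95% interval 54.9% to 65.5%) and the others at 70.1% (63.5% to 76.0%). The height of the ratio did not order the hosts in the same way: 49.7% were listed when their highest locus had a mean ratio under 15, 51.2% at 15 to 20, 47.0% at 20 to 40 and 55.3% at 40 or more. Hosts with a locus strong in both lists were listed in 49.1% of cases and the remaining hosts in 50.2%. Listing moved with mRNA level as well, whose part in the order by number of peaks was not tested. Among genes at or above the 75th percentile of control mRNA level 36.4% of hosts and 36.4% of the others were listed, and among genes below the 25th percentile 57.8% of hosts and 51.7% of the others.

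**Figure D4:**
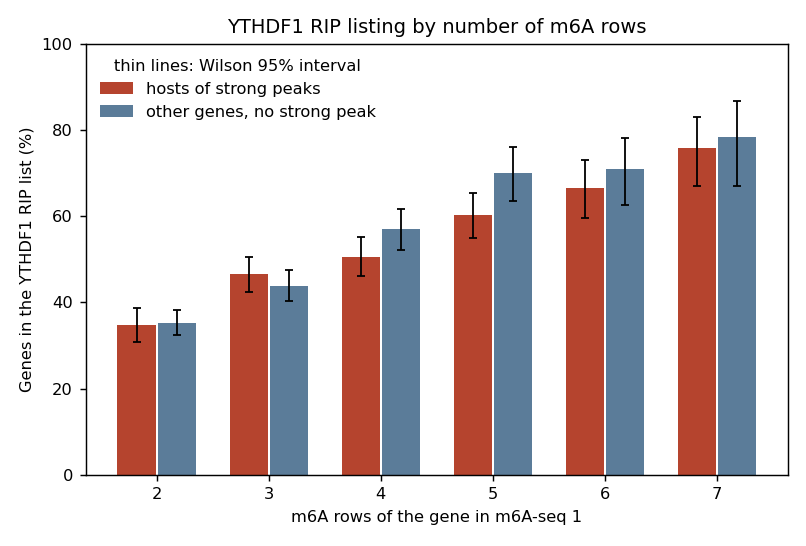
Percentage of genes in the YTHDF1 RIP list (vertical) by the number of m6A peaks of the gene in m6A-seq 1 (horizontal), for hosts of strong peaks and for other genes with 2 to 7 peaks in each list; thin lines are Wilson 95% intervals over genes. Both classes rise, to 75.9% of hosts and 78.5% of the others at 7 peaks.

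Among hosts with a RIP input at or above the list's median of 4.90 FPKM, MCM3AP, a factor of mRNA export, had the highest listed ratio. Its FPKM was 45.4 in the immunoprecipitate and 7.57 in the input, a ratio of 5.99. FLNA, the actin cross-linker filamin A, had 282 in the immunoprecipitate and 48.5 in the input, a ratio of 5.82. UHRF1, which maintains DNA methylation through replication, had 113 in the immunoprecipitate and 19.6 in the input, a ratio of 5.78. CAD, the enzyme that starts pyrimidine synthesis, had 48.1 in the immunoprecipitate and 8.41 in the input, a ratio of 5.72. UBE2O, a ubiquitin-conjugating enzyme, had 81.0 in the immunoprecipitate and 15.3 in the input, a ratio of 5.30. These 5 hosts were not those of the strongest m6A peaks: only UBE2O, at 28.6 and 20.4, had m6A ratios above 20.

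The lowest listed ratios lay at the limit of the list. NIPA2, a magnesium transporter, had 11.9 FPKM in the immunoprecipitate and 7.90 in the input, a ratio of 1.504. HSP90AB1, a cytosolic chaperone, had the highest FPKM of the listed hosts, 4232 in the immunoprecipitate and 2801 in the input, and a ratio of 1.51. Among the Wnt genes, FZD7 had a ratio of 3.95, TLE1 3.88, TNKS2 2.96, LRP5 2.93, RNF43 2.44, BCL9 2.27, TCF7L2 1.86 and BTRC 1.64, and the other 5 hosts of the pathway were not in the list. Among the hosts with the highest m6A ratios, RCOR1 was listed at 2.62, NOMO1 at 2.17 and FBXL15 at 1.75, whereas SDSL, COMMD1, HOXA9 and TUBGCP5 were not listed.

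The knockdown was seen in YTHDF1 itself. Its mRNA value was 8.62 and 7.81 in the knockdown libraries and 27.4 in the control, and its footprint value 17.0 and 19.9 in knockdown and 61.4 in control. The adjusted p over all genes was 1.00 for mRNA and 0.552 for footprints (limma), so the targeted gene did not pass the test. The test has 2 residual degrees of freedom and assumes that the lone control varies like the knockdown libraries.

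Ribosome footprints, mRNA and translational efficiency of the hosts stood near those of all genes. Of the 2164 hosts, 1338 were in the expression table and 1328 were tested. Their median log2 change in footprints was -0.29, against -0.28 over all 6782 genes tested, and in mRNA -0.00 against -0.01. In translational efficiency, the footprint change beyond that of mRNA, it was -0.29 against -0.27. With each library centred on its median the footprint median of all genes moved to 0.01 and that of hosts to 0.00, so the sign of these medians depends on the scaling. No host passed an adjusted p of 0.05 (limma) in footprints, mRNA or translational efficiency, while 0.0295% of all genes did in footprints and 0.0% in each of the others. The number of genes past the threshold, hosts among them, changed when either knockdown footprint library was left out, which leaves 1 library in that group. Without the footprint library of knockdown 2 the median host change in footprints was -0.185, against -0.194 over all genes. Without that of knockdown 1 it was -0.361, against -0.340. The counts that follow use all libraries. At an unadjusted p under 0.05 there were 122 hosts (9.19%) for footprints, against 8.85% of all genes, with 26 higher (all genes, 1.86%) and 96 lower (all genes, 6.99%). For mRNA there were 4, against 0.472% of all genes, with 2 higher (all genes, 0.177%) and 2 lower (all genes, 0.295%). For translational efficiency there were 34 (2.56%), against 2.73%, with 8 higher (all genes, 0.59%) and 26 lower (all genes, 2.14%). These shares are near the background of all genes.

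By library, both knockdown values were below the control in footprints for 677 hosts (51.0%), against 51.2% of all genes, and both were above for 235 (17.7%), against 17.5%. In mRNA both were above for 33.2%, against 30.9%, and both below for 28.8%, against 29.9%. Hosts were expressed at lower levels than other genes with 2 to 7 peaks in each list. The median mRNA value of hosts was 11.03 and 11.80 in the knockdown and 11.2 in the control. For the others it was 15.6 and 16.3 in the knockdown and 16.2 in the control. The rule favours peaks with a low m6A input value, as given above. What part this has in the lower level of hosts was not tested. The median log2 ratio of footprints to mRNA in the control, with 1 added to each value, was 1.07 for hosts and 0.917 for the others. Over all genes tested it was 1.08, so the hosts stood at the general level and the others below it.

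The footprint change differed with the number of loci, as a description without a test. The median log2 footprint change was -0.27 for 938 hosts with 1 locus, -0.34 for 304 with 2 and -0.43 for 86 with 3 or more. Both knockdown libraries lay below the control in 48.9%, 54.6% and 60.5% of them. In translational efficiency the medians were -0.28, -0.31 and -0.28, with no such order. The median control mRNA value fell along the same classes, at 12.1, 9.37 and 7.29, and its part in the footprint medians was not tested. The ratio did not order the hosts: the footprint medians were -0.30, -0.23, -0.26 and -0.31 with the highest locus under 15, at 15 to 20, at 20 to 40 and at 40 or more. Hosts in the RIP list had a footprint median of -0.30 and those outside it -0.27.

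XYLT2, a xylosyltransferase that starts proteoglycan chains (GRCh38 chromosome 17, 50346126 to 50361185), had the smallest p of any host. Its footprint values were 3.04 and 1.86 in the knockdown libraries and 75.7 in the control. Both knockdown libraries were far below the control, while its mRNA was 3.69 and 11.9 in knockdown and 12.2 in control, with 1 knockdown library at the control's level. The log2 footprint change was -4.50 ± 0.69 (SE), with adjusted p = 0.344 (limma). Its m6A locus had ratios of 12.4 and 11.3, and its RIP ratio was 3.81.

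The other hosts with low footprints did not pass either, at adjusted p = 0.552 (limma) each. NT5DC2, of a nucleotidase-like family, had footprints of 15.1 and 15.6 in knockdown and 55.5 in control, a log2 change of -1.79 ± 0.41, and its mRNA was 42.8 and 69.0 in knockdown against 88.1 in control. USF1, a helix-loop-helix transcription factor, had 15.4 and 16.3 in knockdown against 52.8 in control, a change of -1.68 ± 0.41, with mRNA at 22.1 and 16.4 in knockdown against 14.2 in control. TXNDC11, of the thioredoxin-domain family, had 4.80 and 5.51 in knockdown against 19.4 in control, a change of -1.73 ± 0.43. CTPS1, which makes CTP for nucleic acid and lipid synthesis, had 55.6 and 52.3 in knockdown against 137 in control, a change of -1.33 ± 0.31. In each of these 4 hosts the knockdown libraries lay close together and below the control. Their selection required the second, which 51.2% of all genes shared. Picking by the smallest p also favours libraries that lie close together.

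Higher footprints were found in CDK17, a cyclin-dependent kinase relative, at 29.3 and 19.98 in knockdown and 4.86 in control. The log2 change was 2.11 ± 0.48, and its mRNA was 9.05 and 7.75 in knockdown against 4.58 in control. PITPNM1, a phosphatidylinositol transfer protein, had 56.3 and 34.0 in knockdown against 9.67 in control, a change of 2.07 ± 0.52. TBL1XR1, a corepressor subunit, had 397 and 419 in knockdown against 154 in control, a change of 1.40 ± 0.37. PCSK7, a proprotein convertase, had 61.9 and 39.7 in knockdown against 16.1 in control, and PANK4, of the pantothenate kinase family, had 24.3 and 20.3 in knockdown against 7.15 in control. None passed, with adjusted p = 0.552 (limma). The groups did not overlap in these 5 hosts, which is how they were picked, and 17.5% of all genes also had both knockdown footprint values above the control.

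**Figure D5:**
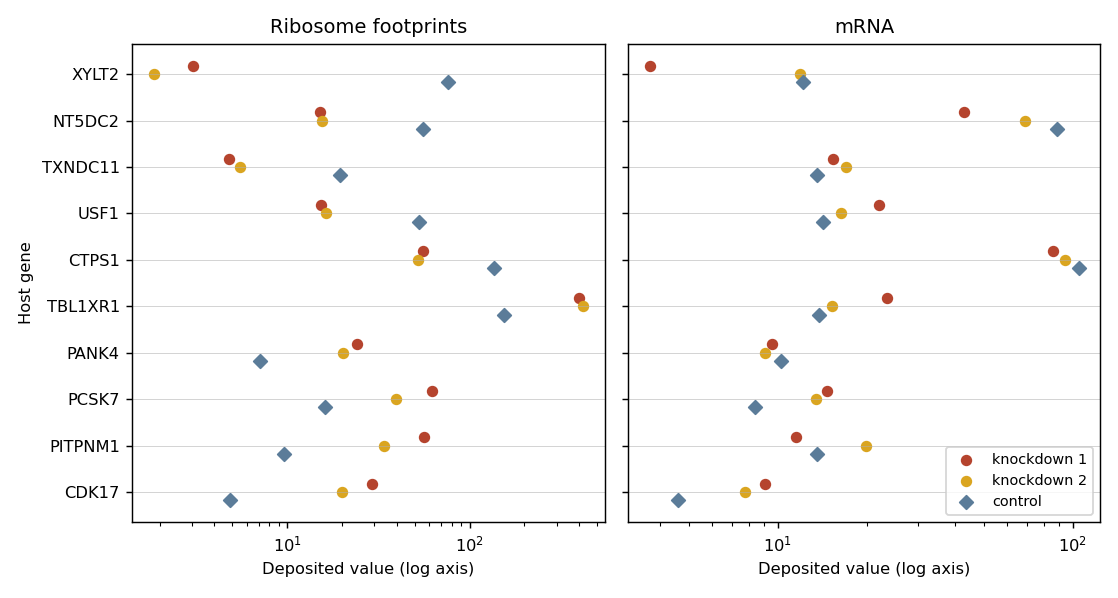
Deposited footprint values (left) and mRNA values (right) on log axes for the 10 hosts with the smallest p for footprints, 5 lower and 5 higher; circles are the knockdown libraries and diamonds the control. Footprints of knockdown and control do not overlap in any of the 10, which is how they were picked. Over all genes tested, 51.2% had both knockdown footprint values below the control and 17.5% both above. The mRNA values lie closer together, which the picking by footprints favours.

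In mRNA, OSBPL9, an oxysterol-binding protein relative, had 26.6 and 23.5 in knockdown and 72.9 in control, a log2 change of -1.51 ± 0.39. LPP, a focal adhesion protein, had 4.58 and 2.82 in knockdown against 13.3 in control. COPS4, a COP9 signalosome subunit, had 38.5 and 31.9 in knockdown against 17.2 in control, a change of 0.98 ± 0.35. BIRC2, an inhibitor of apoptosis, had 26.3 and 20.6 in knockdown against 9.32 in control. None passed, with adjusted p = 1.00 (limma). In translational efficiency ZNF778, a zinc finger gene, had the smallest p: its footprints were 38.6 and 25.2 in knockdown and 107 in control while its mRNA was 12.3 and 9.79 in knockdown against 4.66 in control, a difference of -2.82 ± 0.63 with adjusted p = 0.996 (limma). Its RIP ratio was 5.72 over an input of 1.75 FPKM.

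Of 11 Wnt pathway and target hosts tested, 5 had both knockdown footprint values below the control (BTRC, LRP5, TCF7L2, BMP4 and CCND1), 3 had both above (BCL9, TNKS2 and SOX9), and in FZD5, JUN and ID2 they lay on either side. Over all genes tested, 51.2% had both knockdown footprint values below the control and 17.5% both above. None passed the test. TCF7L2 had footprints of 42.2 and 143 in knockdown and 229 in control, a log2 change of -1.54 ± 0.73 (adjusted p = 0.575, limma), and mRNA of 47.8 and 89.7 in knockdown against 69.8 in control. LRP5 had footprints of 4.05 and 2.13 in knockdown against 4.15 in control. BCL9 had 15.8 and 6.98 in knockdown against 2.71 in control, a change of 1.64 ± 0.61 (adjusted p = 0.552, limma). CCND1 had 1235 and 1153 in knockdown against 1717 in control, a change of -0.52 ± 0.27. BMP4 had 125.4 and 109.9 in knockdown against 168.7 in control, and SOX9 had 22.7 and 10.1 in knockdown against 8.32 in control.

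ID2, with the strongest m6A locus of the Wnt targets, differed more between the knockdown libraries than between conditions. Its footprints were 75.4 and 335 in knockdown and 212 in control, and its mRNA 9.85 and 50.7 in knockdown against 42.8 in control. The hosts with the highest m6A ratios gave no common direction. RCOR1 had footprints of 11.8 and 21.6 in knockdown and 13.1 in control, and SDSL had 32.6 and 26.2 in knockdown against 9.19 in control. MTRNR2L8 had 28.2 and 18.0 in knockdown against 56.9 in control, and NOMO1 had 1.21 and 2.62 in knockdown against 3.59 in control, both uncertain because of their copies. Of the loci with the most input, GJC1 had 38.1 and 61.8 in knockdown against 37.3 in control, LRRC47 had 28.8 and 24.996 in knockdown against 23.2 in control, and PPM1D had 21.3 and 22.8 in knockdown against 15.8 in control.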

How the data were processed

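HCT116 libraries of ribosome profiling, mRNA-seq, YTHDF1 RIP and m6A-seq were grouped by the sample labels. STAR and GRCh38 are named in the submitters' processing notes, without versions. The m6A peaks were called per replicate, and the peak signal in immunoprecipitate and input and their ratio are as the authors deposited them. The FPKM values of the RIP list and the expression signal, whose unit the header does not name, are also the authors' deposited values. No header or label names the peak caller.

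Members were found by the rule on the quotient of the deposited signals, and members of both lists that shared at least 1 base were merged (python 3.11.15, pandas 2.3.3, scipy 1.17.1). Intervals are Wilson 95%. Values were tested as log2(value + 1), which understates changes of low genes, after removing genes whose mean log2 value was under 1, with limma 3.58.1 (R 4.3.3) over 6782 genes, 2-sided, Benjamini-Hochberg adjusted. Left out were 12 damaged names of the expression table, 8 RIP rows with a number for a name and 1 RIP name listed 2 times. Gene positions are from RefSeq on GRCh38, in which 2163 hosts were found. The fit was tested on simulated data. Members, gene lists and families were chosen with earlier results of these data known. Genes named were the loci highest in ratio, in input, in 1 list only and in number per host, the rows nearest the threshold, the extremes of RIP among well covered hosts, the smallest p where neither knockdown library crossed the control, and hosts in the lists; 3 genes this rule or a count would name are not reported here. Alternatives tried were other thresholds, overlaps, pseudocounts, filters, scalings, a replicate block and leaving out each library.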

Additional observations from a re-analysis of the deposited data

How the results depend on the processing

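The match in the other list for m6A-seq 1 was 82.6% when at least 50% of the strong peak had to overlap. It was 87.1% at a ratio of 15 or more and 89.6% at an input of 20 or more. For m6A-seq 2 it was 82.6% and 88.2% under the overlap and the input setting. By ratio the match for m6A-seq 2 was 83.8% at 15 to 20, 84.6% at 20 to 40 and 92.5% at 40 or more, against 85.7% at 10 to 15. The median host change in footprints was 0.0024 with median centring and -0.0101 with quantile normalisation, and in translational efficiency -0.0090 and -0.0251, where the scaling takes out the shift of all genes by construction. Of all hosts, 23.9% were in the RIP list with a RIP input at or above the list median, against 28.6% of the others. This turns the order of 49.7% and 47.0%, but listed hosts had the lower RIP input, so the setting favours the others. At a RIP ratio of at least 2 the share was 33.0% of hosts and 30.6% of the others. Both settings count fewer genes by construction. Leaving out 1 library at a time gave 0 to 9 hosts past the threshold in footprints, with 1 without knockdown library 1 and 9 without knockdown library 2, where the lone knockdown library is assumed to vary like the other groups; the cause was not tested. Knockdown libraries 1 and 2 carry their number in both assays, and their difference correlated at 0.370 across genes between assays; with only 2 pairs and 1 control this does not show pairing. With the replicate block 2 of 1328 hosts passed in footprints (DUSP5 and XYLT2), against 30 of all 6782 genes tested. In mRNA 0 hosts passed, against 2 of all genes, and in translational efficiency 0 hosts, against 6 of all genes. The log2 change of XYLT2 stayed at -4.50. The median host change in mRNA, -0.0033, changed sign with a pseudocount of 5 (0.00062), median centring (0.0058), quantile normalisation (0.0039) and without the mRNA library of knockdown 1 (0.052). Unknown depth limits what low values can show.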
